A study of Mus musculus with 10 samples.

Results

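Cenpu, Ube2c and Anapc1 are 3 genes of mitosis, each measured by 1 probe, out of 22359 mRNA probes on the array and 16720 that were detected and compared between ages. They were picked by function from the mRNAs that the study had tabulated as lower in aged hearts, so the age difference of each is given here as a description and carries no test. Names were at hand for 690 probes tabulated in this way, and their aged minus young differences ran from -5.30 to -1.35 on the log2 scale, the last being the value closest to the table's edge.

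Hearts of 5 young mice (the 3m group, 3 months old) and 5 aged mice (the 20m group, 20 months old) were profiled, with 1 mouse per one-colour array and no repeat arrays. All 10 mice were singly housed wild-type C57BL/6 males, and no treatment was under study. The study examined its mice by echocardiography under isoflurane shortly before tissue was taken. The 2 ages were bought from separate suppliers, and the older mice were kept on until 20 months, which means that supplier and age cannot be told apart. RNA was taken from bulk myocardial tissue, in which fewer cells of a type and less RNA per cell cannot be told apart.

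Mitosis hands 1 copy of every chromosome to each daughter cell. CENP-U, the product of Cenpu, belongs to the inner kinetochore, the protein assembly that sits on centromeric chromatin and to which spindle microtubules attach. Anaphase starts when the anaphase-promoting complex (APC/C), a ubiquitin ligase, marks securin and cyclin B for destruction. ANAPC1 is the large scaffold subunit of that ligase, and UBE2C is the ubiquitin-conjugating enzyme that primes its substrates. The mRNAs of Cenpu and Ube2c are made mainly in cycling cells, whereas the APC/C also has roles in cells that no longer divide. Adult heart muscle cells rarely divide, and other cell types of the heart keep more capacity to do so.

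The probe sequences are shown because they differ in base composition. Each array probe is 60 bases long. For Cenpu, 30 bases (26 to 55 of the probe) are printed with the motif CCTGCC in capitals, and the other probes are printed whole.
Cenpu: gagtttggagtcCCTGCCtttgggaacggt
Ube2c: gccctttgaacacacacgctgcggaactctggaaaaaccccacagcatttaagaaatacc
Anapc1: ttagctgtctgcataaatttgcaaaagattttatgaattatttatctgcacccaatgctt

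The Cenpu gene lies on the plus strand at chr8:46552028-46580007 of the mouse build GRCm38, and its listed transcript (ENSMUST00000034045) is 2931 bases long. Its probe covers chr8:46552029-46552088, which are exonic bases 2 to 61 of that transcript, and begins 40 bases before the start that RefSeq gives the gene. The probe therefore reads the extreme 5′ end of the mRNA. Its GC content was 58.3%, and 2 of the 3 sense reading frames held no stop codon. Ube2c lies on the plus strand at chr2:164769898-164772907, with a listed transcript (ENSMUST00000088248) of 967 bases. The Ube2c probe had a GC content of 48.3% and 1 open reading frame. Anapc1 lies on the minus strand at chr2:128610104-128687391, with a listed transcript (ENSMUST00000014499) of 8942 bases. The Anapc1 probe was the richest in A and T of the 3, with a GC content of 30.0% and 1 open reading frame. Where on their transcripts the Ube2c and Anapc1 probes lie was not analysed here.

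Cenpu had by far the widest gap between the ages. On the normalised log2 intensity scale, its probe read 8.46, 9.12, 9.53, 9.61 and 8.46 in young hearts 1 to 5, and 4.48, 4.68, 4.79, 4.26 and 4.13 in aged hearts 1 to 5. Every aged heart lay below every young heart, and the lowest young value exceeded the highest aged value by 3.67. Before normalization the processed intensities were 330 to 1141 in young hearts and 14.5 to 25.6 in aged hearts, and the probe was still well above background on all 5 aged arrays. Group means were 9.04 ± 0.56 and 4.47 ± 0.28 (SD, n = 5 each), a log2 difference of -4.57 (SE 0.25) or a 23.8-fold lower signal in aged hearts. The aged signal is dim, so the size of this difference is approximate. With an offset of 50 added to the processed intensities it was -2.9996. Of the 16720 mRNA probes compared, Cenpu ranked 2 from the lowest difference.

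Ube2c differed less between the ages than Cenpu did. It read 7.18, 7.74, 8.53, 8.43 and 7.41 in young hearts 1 to 5 and 5.86, 5.61, 5.82, 5.85 and 5.33 in aged hearts 1 to 5. The groups did not overlap, with 1.32 between the lowest young and the highest aged value, and the aged hearts lay closer together than the young ones. Means were 7.86 ± 0.60 and 5.70 ± 0.23 (SD, n = 5 each), giving a log2 difference of -2.16 (SE 0.26), which is a 4.48-fold lower signal. The probe was well above background on all 10 arrays and ranked 91 from the lowest.

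Anapc1 showed the opposite arrangement of spread, with scattered aged hearts and compact young ones. Young hearts 1 to 5 read 6.04, 5.94, 5.82, 5.68 and 5.33, and aged hearts 1 to 5 read 3.88, 3.28, 3.15, 4.44 and 4.50. The groups were again separate, by 0.82 at the narrowest. Processed intensities were 50.3 to 76.4 in young hearts and only 7.90 to 18.7 in aged hearts, where hearts 2 and 3 were not well above background. Means were 5.76 ± 0.28 and 3.85 ± 0.63 (SD, n = 5 each), a log2 difference of -1.91 (SE 0.27) or a 3.76-fold lower signal, at rank 163. With 2 of the 5 aged values at background, the size of this difference is approximate.

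**Figure D1:**
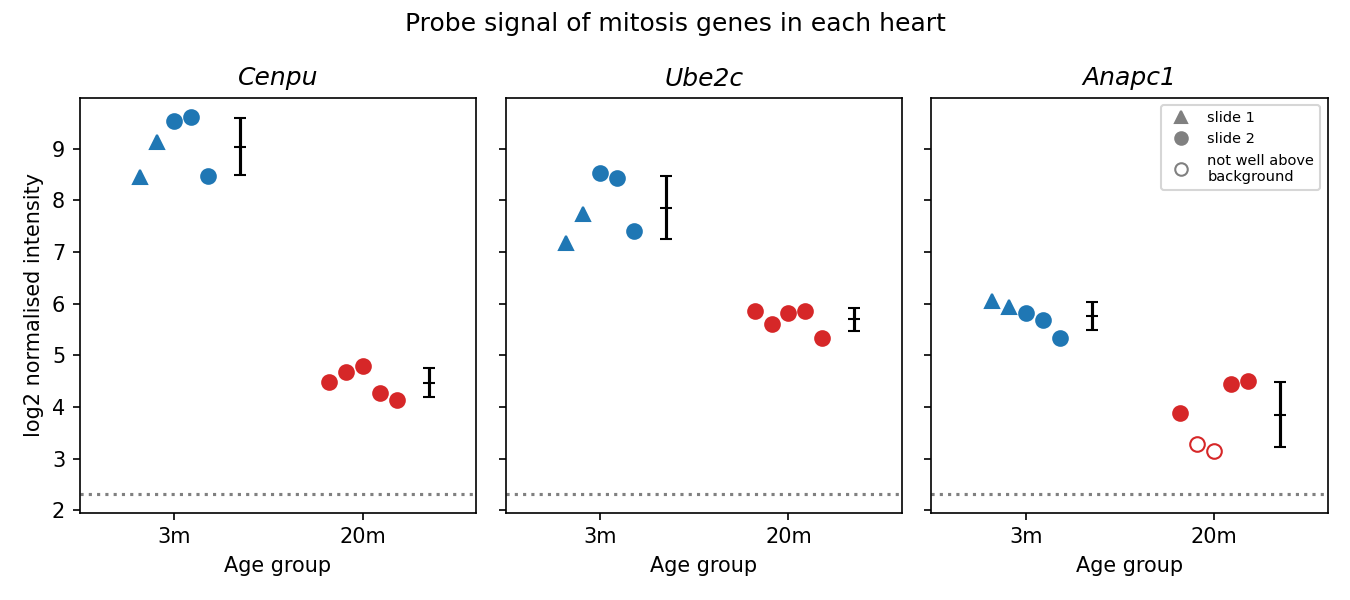
Normalised log2 intensity (vertical axis) of the Cenpu, Ube2c and Anapc1 probes in each heart of the 3m and 20m groups (horizontal axis), with triangles for slide 1, circles for slide 2 and open circles where the probe was not well above background. Black bars give the mean and SD of 5 hearts and the dotted line the floor of 5 set on the linear scale. No aged heart reaches the lowest young heart in any panel, and the distance is widest for Cenpu.

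All 3 genes were called lower in the aged group by limma (adjusted p below 0.05 with a log2 difference no higher than -1), a rule that called 1613 of 16720 mRNA probes, or 9.65%. In all 3, every aged heart was below every young heart, which held for 2700 of the 16720 probes, or 16.1%. Since the genes came from a table built on this very contrast, these counts follow from the choice of genes. The median log2 difference was -0.05 over all mRNA probes compared, -1.31 over the 1613 called lower and -1.63 over the 690 named probes. On that scale the difference of Cenpu minus that of Ube2c was -2.41, and Cenpu minus Anapc1 was -2.66. Ube2c and Anapc1 were closer to each other than the SE of either, and their order turned when aged heart 5 was left out (-2.07 and -2.08), so no order between them is read.

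Slides were told apart by the scan times in the file headers, taking 1 scan as 1 slide. On that basis young hearts 1 and 2 lay on slide 1, and the other 8 hearts shared slide 2. On slide 2 alone, the same normalised values gave log2 differences of -4.74 for Cenpu, -2.43 for Ube2c and -1.76 for Anapc1, so each gene kept its direction within the slide that held both ages. The young means on slides 1 and 2 were 8.79 and 9.20 for Cenpu, 7.46 and 8.12 for Ube2c and 5.99 and 5.61 for Anapc1.

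Measures of the whole array were set beside these values. The 75th percentile of the processed intensity was 129 to 209 (median 176) in young hearts and 109 to 144 (median 126) in aged hearts, and 61.3% to 73.3% and 64.0% to 67.3% of probes were well above background, the aged range of that share lying inside the young one. The array carries control probes at the 3′ and 5′ ends of the housekeeping mRNA GAPDH, and a higher 3′ over 5′ ratio means less signal from the 5′ end relative to the 3′ end. The log2 ratio was 1.71, 1.70, 2.14, 2.16 and 2.17 in young hearts 1 to 5 and 2.48, 2.70, 3.06, 2.33 and 2.40 in aged hearts 1 to 5. No aged heart overlapped a young one in this ratio. The same ratio for PGK1, another housekeeping mRNA, was 8.04 to 8.63 in young hearts and 8.97 to 9.27 in aged hearts. Each ratio was tried as a covariate in the model, where it overlaps with age, since both ratios separate the groups. With the GAPDH ratio as a covariate the log2 difference became -5.09 for Cenpu, -2.58 for Ube2c and -0.995 for Anapc1, and the last no longer met the fold limit. With the PGK1 ratio as a covariate, a choice made after seeing the data, they became -5.83, -3.52 and -1.07, and Anapc1 was again not called. The Cenpu probe reads the extreme 5′ end of its mRNA. Whether lower signal from 5′ ends in aged hearts had a part in the Cenpu difference was not tested.

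How the genes varied together among hearts of the same age was not used to choose them. For each gene the mean of its age group was subtracted, and the 10 deviations were compared. Cenpu and Ube2c tended to deviate to the same side, and both were highest in young hearts 3 and 4 and low in young hearts 1 and 5 and in aged heart 5. In young heart 2 and aged hearts 2 and 4, however, Cenpu and Ube2c lay on opposite sides of their group means. Their deviations had a Pearson r of 0.88 (exact permutation within age groups, 2-sided p = 0.0175, adjusted p = 0.105 over 12 relations) and a Spearman rho of 0.81 (permutation p = 0.0395, adjusted p = 0.182). Neither coefficient passed after adjustment. Without the 2 hearts farthest from the median in Cenpu, young hearts 1 and 5, r was 0.77, and within slide 2 it was 0.86. Slide 1 holds too few arrays for a value.

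Anapc1 did not follow the other two. Its deviations had an r of -0.36 with those of Cenpu (permutation p = 0.204, adjusted p = 0.339; rho -0.48, p = 0.0986, adjusted p = 0.217) and of -0.11 with those of Ube2c (permutation p = 0.662, adjusted p = 0.662; rho -0.19, p = 0.535, adjusted p = 0.535). Aged hearts 2 and 3, the lowest in Anapc1, were above their group mean in Cenpu, and aged hearts 4 and 5, the highest in Anapc1, were below it. Within slide 2 the coefficients were -0.28 and 0.10. Without the 2 hearts farthest from the median, they were -0.66 against Cenpu and -0.04 against Ube2c.

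**Figure D2:**
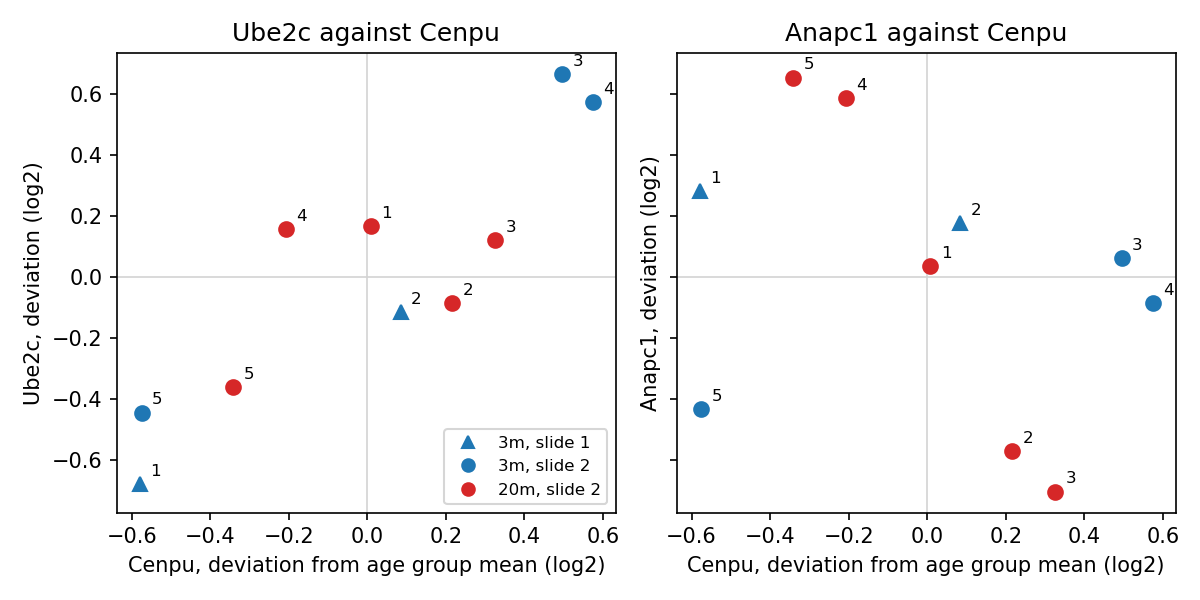
Deviation of each heart from the mean of its age group on the log2 scale, for Ube2c against Cenpu (left) and Anapc1 against Cenpu (right), with blue for 3m, red for 20m, triangles for slide 1, circles for slide 2 and the replicate number beside each point. The points rise together on the left (r = 0.88) and do not on the right (r = -0.36).

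The deviations were also set against the control ratios. Those of Anapc1 had a Pearson r of -0.83 with those of the GAPDH 3′ over 5′ log2 ratio (exact permutation p = 0.0016, adjusted p = 0.0192 over 12 relations) and a Spearman rho of -0.78 (permutation p = 0.00229, adjusted p = 0.0275). Hearts with a higher ratio for their age thus tended to have less Anapc1 signal, aged heart 3 being at one end of both. Young heart 3 was an exception, above the young mean in both. Without the 2 hearts farthest from the median in Anapc1, aged hearts 2 and 3, r was -0.76, and within slide 2 it was -0.87. Young hearts on slides 1 and 2 differed in both measures, and the slide was therefore taken into account, a choice made after seeing the data. With deviations from the mean of each age and slide, permuted within them, r was -0.87 (exact permutation p = 0.00556, adjusted p = 0.0667) and rho -0.84 (permutation p = 0.0361, adjusted p = 0.283), so the relation no longer passed. Cenpu and Ube2c had coefficients of 0.52 and 0.41 with the same ratio (permutation p = 0.126 and 0.254, adjusted p = 0.258 and 0.339). Their coefficients with the PGK1 ratio were 0.69 and 0.73 (permutation p = 0.103 and 0.0871, adjusted p = 0.258 for both), and that of Anapc1 was -0.42 (permutation p = 0.129, adjusted p = 0.258). The Spearman rho of Cenpu with the PGK1 ratio was 0.78 (permutation p = 0.0456, adjusted p = 0.182), and its r within slide 2 was 0.76. Of the 12 relations among the 3 genes, the control ratios and the 75th percentile of intensity, the one between Anapc1 and the GAPDH ratio passed after adjustment when slide was ignored, and none passed within age and slide. Coefficients with intensity were 0.46 for Cenpu, 0.59 for Ube2c and -0.21 for Anapc1, and within age and slide they were 0.31, 0.23 and 0.12, so that of Anapc1 turned its sign. Within age and slide the coefficients with the GAPDH ratio were 0.41 for Cenpu and 0.07 for Ube2c.

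Among the 689 other named probes, the ones most like each gene in their deviations were found. For Cenpu they were Gm10447 (r = 0.98), Gldc (0.97), the glycine cleavage enzyme, and Piwil1 (0.96), a protein of the piRNA pathway, and Ube2c came at rank 13. For Ube2c they were Ptpra (0.93), a receptor tyrosine phosphatase, Med16 (0.93), a Mediator subunit, and Gm10447 (0.89), and Cenpu came at rank 5. For Anapc1 they were Adnp2 (0.99), Snx7 (0.98), a sorting nexin, and Hist1h1c (0.98), a linker histone, while Ube2c came at rank 643 and Cenpu at rank 673. These coefficients run over 10 arrays that share slides and signal level, and are given without a test. The median over the 689 probes was -0.36 for Cenpu, with 137 probes above 0, and -0.24 for Ube2c, with 179 above 0. It was 0.64 for Anapc1, with 619 above 0, so most named probes had a positive coefficient with Anapc1 and a negative one with Cenpu and with Ube2c.

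The scatter of spots on a single array sets a lower limit on the error of these values. On each array 50 other probes were spotted 10 times, and their spot-to-spot SD, which leaves out labeling, array and slide, was read over the intensity range of each gene. At the brightness of Cenpu the median spot SD was 0.05 in young hearts and 0.20 in aged hearts, beside SDs of 0.56 and 0.28 between hearts. For Ube2c the spot SDs were 0.06 and 0.13, beside 0.60 and 0.23 between hearts. For Anapc1 they were 0.10 and 0.29, beside 0.28 and 0.63. The SDs between young hearts also span both slides, and no array was repeated, so the part of labeling and array in the spread between hearts cannot be told apart from that of the hearts.

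**Figure D3:**
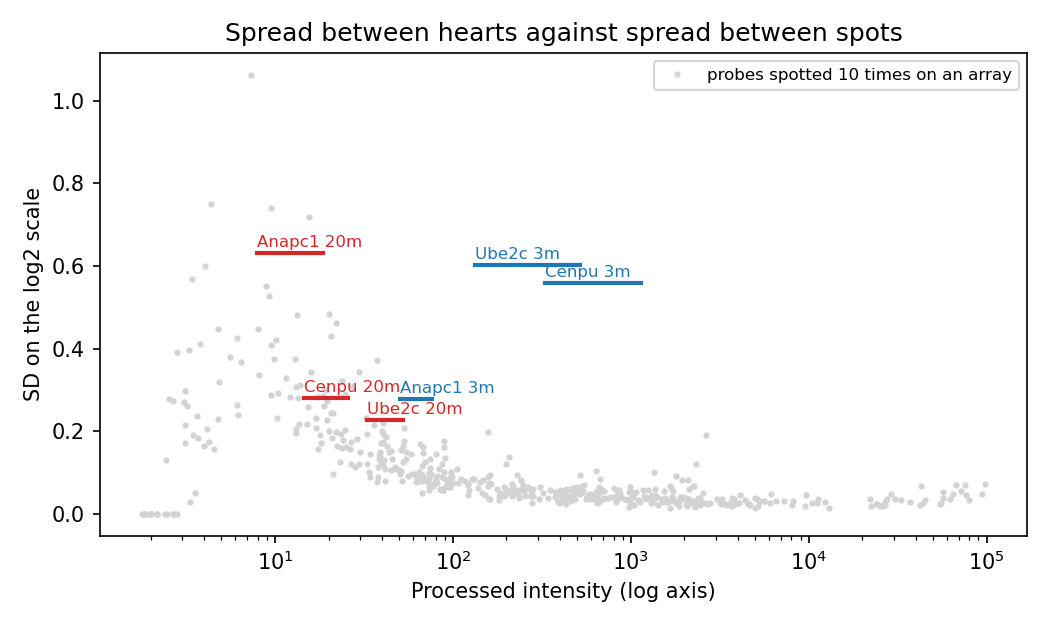
SD on the log2 scale (vertical axis) against processed intensity (horizontal log axis). Grey points are probes spotted 10 times on an array, 1 point per probe and array, and horizontal bars span the intensities of each gene in the 3m (blue) and 20m (red) hearts at the height of its SD between 5 hearts. Spot spread, which covers a single array only, grows toward low intensity, where the aged hearts lie for all 3 genes. It is 0 for the dimmest probes, whose spots all stand at the floor.

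The cell division machinery around the 3 genes could be read in part. Of 163 genes in 7 lists, 7 had a named probe, the 3 genes included (690 of the 22359 mRNA probes were named), and 156 did not. Apart from E2f1, which is described at the end, those 156 were not analysed here. All 7 stood in the table of lower mRNAs, which holds probes of that direction only, so their shared direction was fixed by the table. Named were 2 of 19 genes for APC/C subunits, coactivators and E2 enzymes (Ube2c and Anapc1), 2 of 37 for centromere and kinetochore (Cenpu and Cenpf), 2 of 28 for cyclins, CDKs and their regulators (Cdk6 and Cdkn2c) and 1 of 20 for cohesin, condensin and separase (Pds5a). Among the 690 named probes there was no gene for the spindle checkpoint and mitotic kinases (0 of 20) or for the spindle, midzone and cytokinesis (0 of 25). The same held for proliferation markers (0 of 14). These zeros do not show that such genes were absent from the lower mRNAs, because the names at hand were incomplete. The named probes stopped at a log2 difference of -1.35, whereas 1613 mRNA probes were called lower.

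Cenpf, a protein of the outer kinetochore, read 4.73, 6.14, 5.11, 4.64 and 4.67 in young hearts 1 to 5 and 3.81, 4.09, 3.37, 2.70 and 3.70 in aged hearts 1 to 5. Young heart 2 stood above the other young hearts, and the groups did not overlap. The log2 difference was -1.52 (SE 0.32), from 5.06 ± 0.63 to 3.53 ± 0.53 (SD, n = 5 each).

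Cdk6, a kinase that drives entry into the cell cycle, had means of 5.11 ± 0.34 and 3.33 ± 0.65, a log2 difference of -1.78 (SE 0.29). Cdkn2c, an inhibitor of that kinase, had means of 5.01 ± 0.56 and 3.28 ± 0.39, a difference of -1.72 (SE 0.27). Pds5a, a regulator of cohesin, had means of 7.35 ± 0.56 and 5.97 ± 0.25, a difference of -1.38 (SE 0.25), all SDs being over 5 hearts. As for the 3 genes, these are descriptions, since the table fixed the direction. In aged hearts Cenpf and Cdk6 were well above background on 3 of 5 arrays, Cdkn2c on 2 and Pds5a on 5. The remaining aged values of Cenpf, Cdk6 and Cdkn2c are background readings, 1 of Cdk6 standing at the floor, so that their differences are approximate. Their deviations among hearts of the same age had coefficients with those of Cenpu of 0.23 for Cenpf, -0.28 for Cdk6, -0.32 for Cdkn2c and -0.64 for Pds5a. With those of Ube2c they were -0.07, -0.11, -0.29 and -0.71, and with those of Anapc1 -0.11, 0.42, 0.52 and 0.36. These coefficients hold a split by slide, since the young means on slide 2 minus slide 1 were -0.63 for Cenpf, -0.60 for Cdk6, -1.003 for Cdkn2c and -0.94 for Pds5a, against 0.41 for Cenpu, 0.66 for Ube2c and -0.38 for Anapc1.

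Cell type markers gave little to set beside these values. Of 48 marker genes of 6 cell type lists, 1 had a named probe among the lower mRNAs and 1 of the 11 for macrophages and leukocytes, S100a8, stood among the 45 higher mRNAs listed by the study, and none of the 10 for cardiomyocytes did, so the labelled tissue could not be checked by its markers. The scanner files name a further 46 probes by RefSeq accession, and of the listed genes 1, E2f1 of the proliferation markers, was among them. The lower one was Tek, an endothelial receptor, which was well above background in 5 of 5 young hearts and 0 of 5 aged hearts, so no fold is given. Whether the share of endothelial cells or leukocytes had a part in any of the 3 differences was not tested.

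The position of the Cenpu probe was uncommon among the named probes. A probe was counted as lying at the transcript start where at least 20 bases matched the window from 250 bases before to 50 bases after the gene's RefSeq start. This was so for 35 of the 545 named lower probes with a window (6.42%), Cenpu among them and Ube2c and Anapc1 not. Their median log2 difference was -1.91, against -1.62 for the others, and their median GC content was 63.3%, against 43.3%. Among the mRNAs that the study listed with their sequences, 11 of 65 lower ones (16.9%) and 2 of 37 higher ones (5.41%) had a probe at the start. The motif CCTGCC of the Cenpu probe occurred in 23 of the 690 named lower probes (3.33%), in 13 of 73 listed lower probes (17.8%) and in 1 of 45 listed higher probes (2.22%). These shares are descriptions of probes chosen by their difference. The motif is a stretch of the Cenpu probe, itself among the 690, and was not chosen independently of these data, so no enrichment is read.

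The promoter of Ube2c is shown because genes of mitosis often carry the CHR element (TTTGAA) and CCAAT boxes near their start. The window chr2:164769679-164769917 on the plus strand, from RefSeq's annotation of GRCm38.p6, holds matches in capitals, on either strand, and its last bases enter the listed transcript.
Ube2c promoter: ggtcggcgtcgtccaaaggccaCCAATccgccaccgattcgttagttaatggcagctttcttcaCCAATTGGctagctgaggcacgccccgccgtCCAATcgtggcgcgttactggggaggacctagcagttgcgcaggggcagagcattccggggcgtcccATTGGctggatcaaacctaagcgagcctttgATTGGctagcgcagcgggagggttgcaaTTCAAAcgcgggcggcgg
The printed stretch held 6 CCAAT matches, of which 2 overlap in the run CCAATTGG, and 1 CHR match, read as TTCAAA on the plus strand, that begins 29 bases before the RefSeq start, which is inside the listed transcript, past its start at position 164769898. Counts over all promoters, and those below for Cenpu and Anapc1, use the full window from 250 bases before to 50 bases after the RefSeq start, in which Ube2c also had 6 and 1. Of 32851 mouse promoters, 26 (0.0791%) held at least as many CCAAT matches, 37.4% held at least 1, and 17.9% held a CHR match. Both motifs stood together in 6.95%. The Cenpu window held 1 CCAAT match and no CHR match, and the Anapc1 window held neither. No match to the E2F letters TTTGGCGC, TTTCGCGC, TTTCCCGC or TTTGCCGC was in any of the 3 windows, against 2.26% of all promoters. A match of letters is a description and not a bound site, and binding was not measured.

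The direction of the 3 differences held under each of the settings tried, but their size did not. Background correction by normexp on the spot and background medians with an added offset of 50 gave log2 differences of -2.89 for Cenpu, -1.43 for Ube2c and -0.64 for Anapc1, so that Anapc1 fell short of the fold limit. That offset exceeds the aged intensities of Cenpu and Anapc1. Without it, normexp gave -4.23, -2.04 and -1.51, whereas the offset alone, added to the processed intensities, gave -2.9996, -1.48 and -0.68. Leaving out any single heart kept Cenpu between -4.73 and -4.42, Ube2c between -2.32 and -1.99 and Anapc1 between -2.08 and -1.75.

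**Figure D4:**
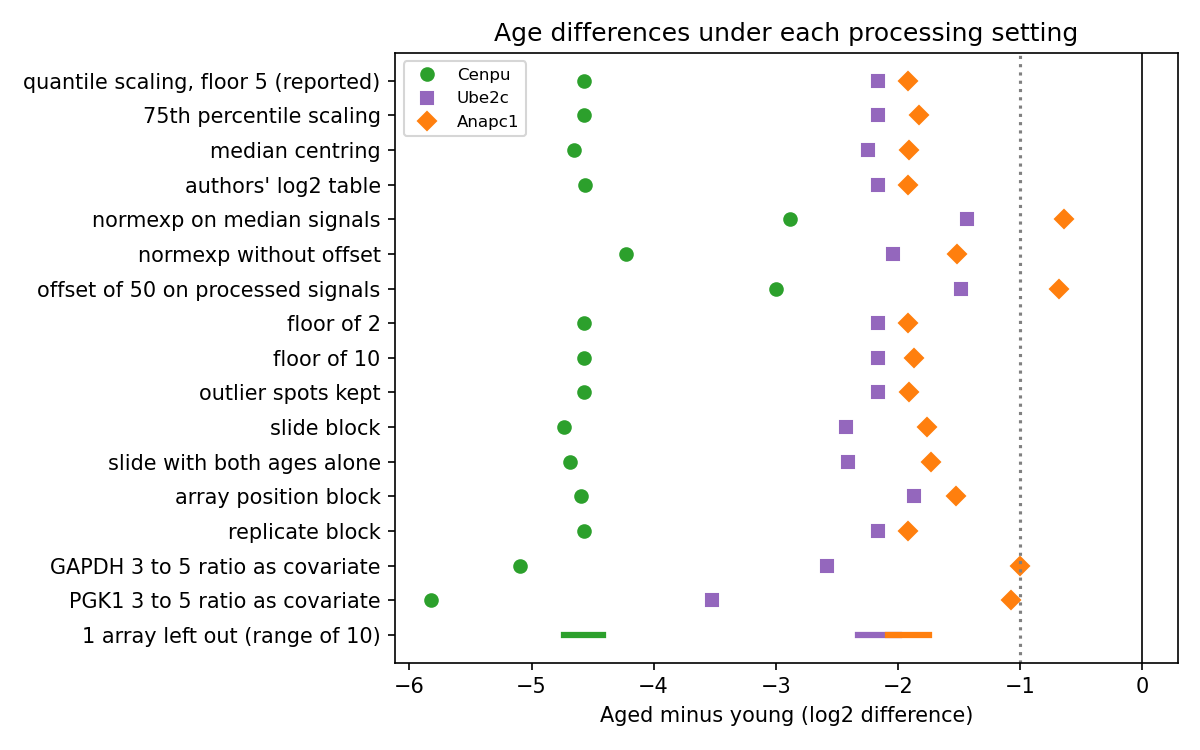
Aged minus young log2 difference (horizontal axis) of Cenpu, Ube2c and Anapc1 under each processing setting (vertical axis), with bars for the range over 10 fits that leave out 1 array and a dotted line at the fold limit of -1. Cenpu stays lowest in each setting, and Anapc1 lies to the right of the dotted line, just so under the GAPDH covariate (-0.995) and clearly where an offset of 50 was added (-0.64 with normexp and -0.68 alone).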

How the data were processed

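Total RNA of 10 hearts was freed of ribosomal RNA, labeled as Cy3 cRNA and hybridised to Arraystar mouse lncRNA arrays at a service company. The authors deposited scanner files with a background-subtracted processed intensity per spot (Agilent Feature Extraction, 11.0.1.1 in the file headers and 9.1 in the submitters' processing notes), not normalized between arrays, and a table of log2 values, quantile-normalized with a floor. Both units were used here. Here, quantile normalization was applied to the intensities of 60641 probes, values under 5 were raised to 5, and the log2 was taken. Outlier spots were left out. Probes that were well above background on 5 or more of the 10 arrays were fitted with limma 3.58.1 in R 4.3.3, with Benjamini-Hochberg adjustment within 16720 mRNA probes.

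Groups came from the sample labels. Probe names, sequences and coordinates came from the study's tables, promoters from RefSeq, and the tables' own fold changes and p-values were not used. Named in the text are the 3 genes, each gene of the cell division lists with a named probe, and for each of the 3 genes the 3 named probes most like it. E2f1, Tek, S100a8 and the marker list counts fall outside that rule. The genes and lists were chosen with earlier results of these data known. Correlations used Python 3.11.15 and scipy 1.17.1, with all 14400 permutations within age groups or 1440 within age and slide, and their p-values were added after the data were seen. Alternatives covered scaling, background, offset, floor, detection filter, outlier spots, test, slide, array position, replicate number, GAPDH and PGK1 ratios and each array left out. Arrays give no count depth, and the number of arrays limits the precision.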

Additional observations from a re-analysis of the deposited data

How the results depend on the processing

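With the GAPDH ratio as a covariate the differences were -5.09 for Cenpu and -0.995 for Anapc1, and 532 mRNA probes were called lower in place of 1613. The PGK1, normexp and offset settings were chosen after seeing the data. With the PGK1 ratio as a covariate they were -5.83, -3.52 and -1.07 for Cenpu, Ube2c and Anapc1, with 375 probes called lower. With normexp on median signals and an offset of 50 they were -2.89, -1.43 and -0.64, with 547 called lower, and with an offset of 50 on the processed signals alone -2.9996, -1.48 and -0.68, with 581. Normexp without an offset gave -4.23, -2.04 and -1.51 with 1189 called and all 3 genes among them, so the shrinkage goes with the offset. In the other 4 settings Anapc1 was not called, and for the covariates the cause was not tested. With each array left out in turn, Cenpu ranged from -4.73 to -4.42, Ube2c from -2.32 to -1.99, Anapc1 from -2.08 to -1.75 and the number of probes called lower from 1249 to 1844. Leaving out an array also moved the coefficient of Cenpu with Ube2c between 0.83 and 0.93, with Anapc1 between -0.67 and -0.24, and that of Ube2c with Anapc1 between -0.29 and 0.07. Scaling by the 75th percentile or the median, the authors' log2 table, floors of 2 and 10 and kept outlier spots called all 3 genes. With deviations taken within age and slide, the relation of Anapc1 with the GAPDH ratio had an r of -0.87 and lost its call, and the other 11 relations stayed without one.

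The slide as a block gave 1104 probes called lower, and the slide with both ages alone 984. Array position as a block gave 2191 lower and 1337 higher (669 otherwise), but only 2 positions hold both ages, where all young hearts lie on slide 1 and all aged ones on slide 2, so that it is no check on the differences. Without a filter 1564 probes were called, with a filter on all 10 arrays 1170 (Anapc1 was then not compared), and by Student's test 1505. The replicate block left the differences at -4.57, -2.16 and -1.91 with 1612 probes called. Hearts with the same number did not deviate together (coefficients of -0.37 to 0.24 over 16702 probes, 2 of 5 young hearts most like their own number), so the number does not pair the hearts. The planned normexp on mean signals was not run, since a mean signal column was not at hand. Dim signal limits Anapc1, of which 2 of 5 aged values were not well above background.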

Other observations

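E2f1, a transcription factor that switches on genes of the cell cycle, is named in the scanner files by its RefSeq accession and was spotted 10 times on each array. It was chosen after its values were seen. In young hearts 1 to 5 the number of spots well above background was 0, 1, 1, 1 and 1 of 10, and in every aged heart it was 0. The mean processed intensity over the 10 spots was 3.55 to 6.09 in young hearts and 2.71 to 4.24 in aged hearts, so the groups overlapped at background level and no fold is given.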
